A study of Mus musculus with 6 samples.

Results

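The genes for the proteins of the cytosolic ribosome were examined in lenses of newborn mice with a lens deletion of Celf1, an RNA-binding protein (Celf1cKO), and of their controls. They were chosen by symbol alone, as the Rpl and Rps genes with a number, Rplp0 to Rplp2, Rpsa and Rack1. The rule found 81 of the 13931 genes in the deposited table, 47 of the large subunit and 34 of the small subunit, including paralogs of both. RNA-sequencing was performed on 3 control and 3 Celf1cKO libraries, each from 2 pooled lenses at postnatal day 0. The Celf1cKO mice carried 1 germline knockout allele (Celf1lacZKI), 1 conditional allele with a floxed exon 5, and the Cre driver Pax6GFPCre, which is also active in some tissues outside the lens. The controls are labelled Celf1lacZKI/+, so that they also carried 1 knockout allele, whereas the study's methods describe Celf1flox mice without Cre unless noted otherwise, and which of these applied was not settled here. Both groups were of mixed C57BL/6 and FVB background. Of the 81 genes, GENCODE M21 annotates 78 as protein coding, Rps4l as a transcribed processed pseudogene, and Rpl6l and Rps3a2 as processed pseudogenes.

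Ribosomal proteins are made in nearly equal amounts, are assembled on ribosomal RNA in the nucleolus and make up, with that RNA, the subunits that read mRNA and join amino acids. Their mRNAs are among the most abundant of most cells and carry a terminal oligopyrimidine (TOP) motif at the 5′ end, a run of C and T bases through which mTORC1 and Larp1 control their translation. In the lens, epithelial cells divide and then differentiate into fiber cells, which fill with crystallin proteins and later lose their organelles, ribosomes among them. Celf1 binds GU-rich sequences, often in 3′ UTRs, and acts on splicing, stability and translation of its target mRNAs.

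The ribosomal protein genes were scattered over 19 chromosomes, with 14 of them on chromosome 7. Their principal transcripts were short, with a median length of 767.5 bases and 5 exons against 2931 bases and 9 exons over all protein-coding genes in the table. Of the 81 genes, 30 hosted at least 1 annotated snoRNA on the same strand (37.0%), against 235 of the 13928 genes of the table found in the annotation (1.69%). RefSeq promoter windows (GRCm38.p6, 250 bases before to 50 after the annotated start) were matched for 58 of the genes by symbol. A run of at least 8 C or T bases that touched the 20 bases on either side of the start was present in 31 of these 58 (53.4%) and in 23.9% of the genes of the table with such a window. The motif CCGGAAG, the core bound by ETS factors, was found on either strand in the windows of 41.4% of the 58 genes and of 18.7% of the genes of the table. The E-box CACGTG was found in 10.3% and 11.6%, respectively. The windows below run from 25 bases before to 20 bases after the annotated start, with the first of the longest pyrimidine runs in capitals. They are shown for the 2 genes that passed the test described below, Rps27l and Rpl19, and for Rack1 and Rpl4, whose fold-changes were close to 0, so that the run can be placed against the annotated start. The marked run ended before that start in Rps27l, Rpl19 and Rpl4 and spanned it in Rack1, and Rps27l holds another run of the same length in lower case. Rps27l and Rpl19 each have a further annotated start without such a run.
Rps27l (chr9:66946061-66946105, + strand): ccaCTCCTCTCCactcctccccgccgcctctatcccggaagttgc
Rpl19 (chr11:98026899-98026943, + strand): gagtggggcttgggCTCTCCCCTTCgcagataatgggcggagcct
Rack1 (chr11:48800335-48800379, + strand): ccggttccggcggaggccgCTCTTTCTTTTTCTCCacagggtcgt
Rpl4 (chr9:64173362-64173406, + strand): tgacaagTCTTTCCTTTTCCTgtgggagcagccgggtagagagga
The 31 genes with a run had a median log2 fold-change of -0.03 (13 higher and 18 lower in Celf1cKO lenses), and the other 27 with a window had one of -0.07 (8 higher and 19 lower).

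Their 3′ UTRs were short as well, with a median of 67 bases against 908 bases over all protein-coding genes in the table. The GU-rich heptamer TGTTTGT was present in the 3′ UTR of 9 of the 78 protein-coding members (11.5%) and of 25.2% of all genes. Per kilobase of 3′ UTR, it occurred 0.385 times in the members and 0.320 times in all genes. The other GU-rich heptamer searched, TGTGTGT, was present in 6 of the 78 (7.69%) and in 28.7% of all genes, and per kilobase it occurred 0.471 times in the members and 0.943 times in all genes. The log2 fold-changes of the 9 genes with TGTTTGT lay between -0.33 and 0.13, with 4 higher and 5 lower. The site of Rpl39, which had the lowest fold-change of the 9, and that of Rps25 are printed with TGTTTGT in capitals (GENCODE M21, GRCm38).
Rpl39 (chrX:37082574-37082600, - strand): tgaattaggaTGTTTGTccagtaataa
Rps25 (chr9:44410122-44410148, + strand): tgttttttttTGTTTGTtttacaggtt
A match is no evidence of binding, which was not measured here.

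Expression was high in most of the family. Of the 81 genes, 73 had a mean level over the 6 libraries of at least 7.07 log2 CPM and at most 10.11, and the other 8 had between -0.06 and 5.79 log2 CPM. Mean log2 CPM was above 1 for 80 genes, and Rps3a2 was the exception. Levels were set against each other per length of the principal transcript. The highest in control lenses were Rpl41, a peptide-sized protein of the large subunit, with 1372 CPM per kb, Rps12 of the small subunit with 912 CPM per kb, and Rplp1 of the stalk with 904 CPM per kb. The lowest were Rps3a2 with 1.29, Rpl6l with 2.74 and Rpl7l1 with 14.2 CPM per kb. Rpl7l1 is a paralog of Rpl7, which had 895 CPM per kb. In Celf1cKO lenses the same 6 genes had 1227, 736, 838, 1.15, 2.43 and 12.4 CPM per kb. The conventional ribosomal protein Rpl13a was also low at 20.7 CPM per kb in control lenses, as only 608 to 985 reads were assigned to it in each control library. Only uniquely mapped reads had been counted, and 59 of the 81 genes have at least 1 processed pseudogene named after them in the annotation, with up to 24 for Rpl31, so that levels of single genes also depend on how many of their reads could be placed. Rps3a2 and Rpl6l share 99.5% and 98.7% of their bases with Rps3a1 and Rpl6, with identical runs of 317 and 354 bases, so that their counts are uncertain. Rps15a and Rps20 have annotated principal transcripts of 5130 and 3706 bases, and their levels per length (53.5 and 85.6 CPM per kb) rest on these.

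**Figure D1:**
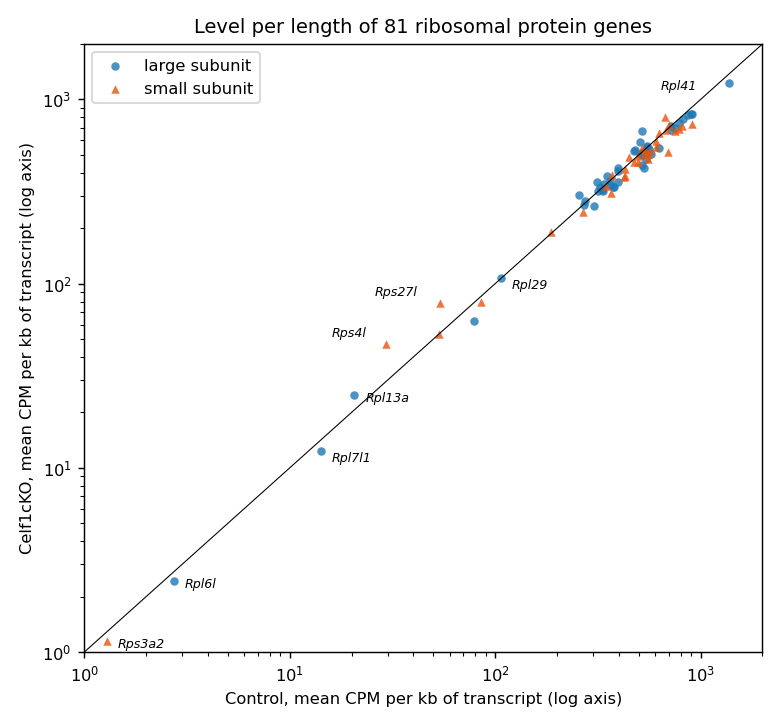
Mean level per kb of principal transcript of the 81 ribosomal protein genes in control (x axis) and Celf1cKO lenses (y axis), both in CPM per kb on log axes, with circles for the large and triangles for the small subunit and the line of equal levels. Most genes sit close to the line between about 250 and 1372 CPM per kb, and Rps27l and Rps4l lie above it.

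Each library had between 40694454 and 44387151 reads on the genes of the table. Celf1 was at 9.34 to 9.95 log2 CPM in controls and at 7.66 to 8.93 log2 CPM in Celf1cKO libraries (adjusted p = 0.0269 by limma for a log2 fold-change of -1.60), and Celf1cKO library 1 had the highest level of its group. Crystallin genes, which encode the main proteins of fiber cells, took 46.3% ± 0.6 (SD, n = 3) of reads in control and 36.3% ± 2.0 (SD, n = 3) in Celf1cKO libraries. Relative to these totals, the deposited normalization multiplied library sizes by 0.89 to 0.96 in controls and by 1.06 to 1.12 in Celf1cKO lenses. Ribosomal protein genes took 3.02%, 3.01% and 2.60% of the reads in the 3 control libraries, in order of replicate number, and 3.40%, 3.16% and 3.15% in the 3 Celf1cKO libraries. All 3 Celf1cKO libraries were above all 3 control libraries, with means of 3.23% ± 0.14 (SD, n = 3) and 2.88% ± 0.24 (SD, n = 3). With crystallin reads left out of the total the order turned, at 5.08% ± 0.38 (SD, n = 3) in Celf1cKO and 5.36% ± 0.45 (SD, n = 3) in control libraries, and the groups overlapped. In pooled whole lenses, a change in the RNA of each cell and a change in the share of a cell type cannot be told apart.

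The comparison of the groups asked which ribosomal protein mRNAs differed when Celf1 was deleted in the lens. None of the 81 genes passed all cut-offs of the study (mean log2 CPM above 1, a log2 fold-change beyond 0.58 and an adjusted p-value under 0.05 by limma), whereas 7.25% of all genes in the table did. With the adjusted p-value alone, Rps27l and Rpl19 passed and both were elevated in Celf1cKO lenses, 2 of 81 against 11.9% of all genes (7.85% elevated and 4.03% reduced). At an unadjusted p under 0.05 limma gave 7 of the 81 genes, 3 higher and 4 lower, against 29.9% of all genes, and voom on the recovered reads gave 0 genes by all cut-offs and 2 by the adjusted p-value. The median log2 fold-change of the family was -0.06, against 0.01 over all genes with a mean log2 CPM above 1. Of the 81 genes, 51 were lower and 30 higher in Celf1cKO lenses on the deposited scale, but when libraries were scaled by their total reads alone, which raised the median over expressed genes by 0.23, only 5 were lower and 76 higher. Relative to the median of expressed genes, the family's median was -0.06 under both scalings. Genes of the large and of the small subunit had medians of -0.06 and -0.07.

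Fold-changes lay close together. The interquartile range of their log2 fold-changes was -0.15 to 0.04, and that of all expressed genes was -0.25 to 0.27. The 95% interval of the fold-change lay wholly within 0.58 of 0 for 70 of the 81 genes (86.4%). The same held for 43.3% of all expressed genes and for 59.4% of the 741 genes with mean levels in the range of most of the family. Only Rps4l had a log2 fold-change beyond 0.58. The libraries of the 2 groups did not overlap in 7 of the 81 genes, 5 of them above (Rps27l, Rpl19, Rpl27, Rpl7a and Rpl36) and 2 below (Rpl39 and Rpl6l), against 36.5% of all genes (19.5% above and 17.0% below).

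**Figure D2:**
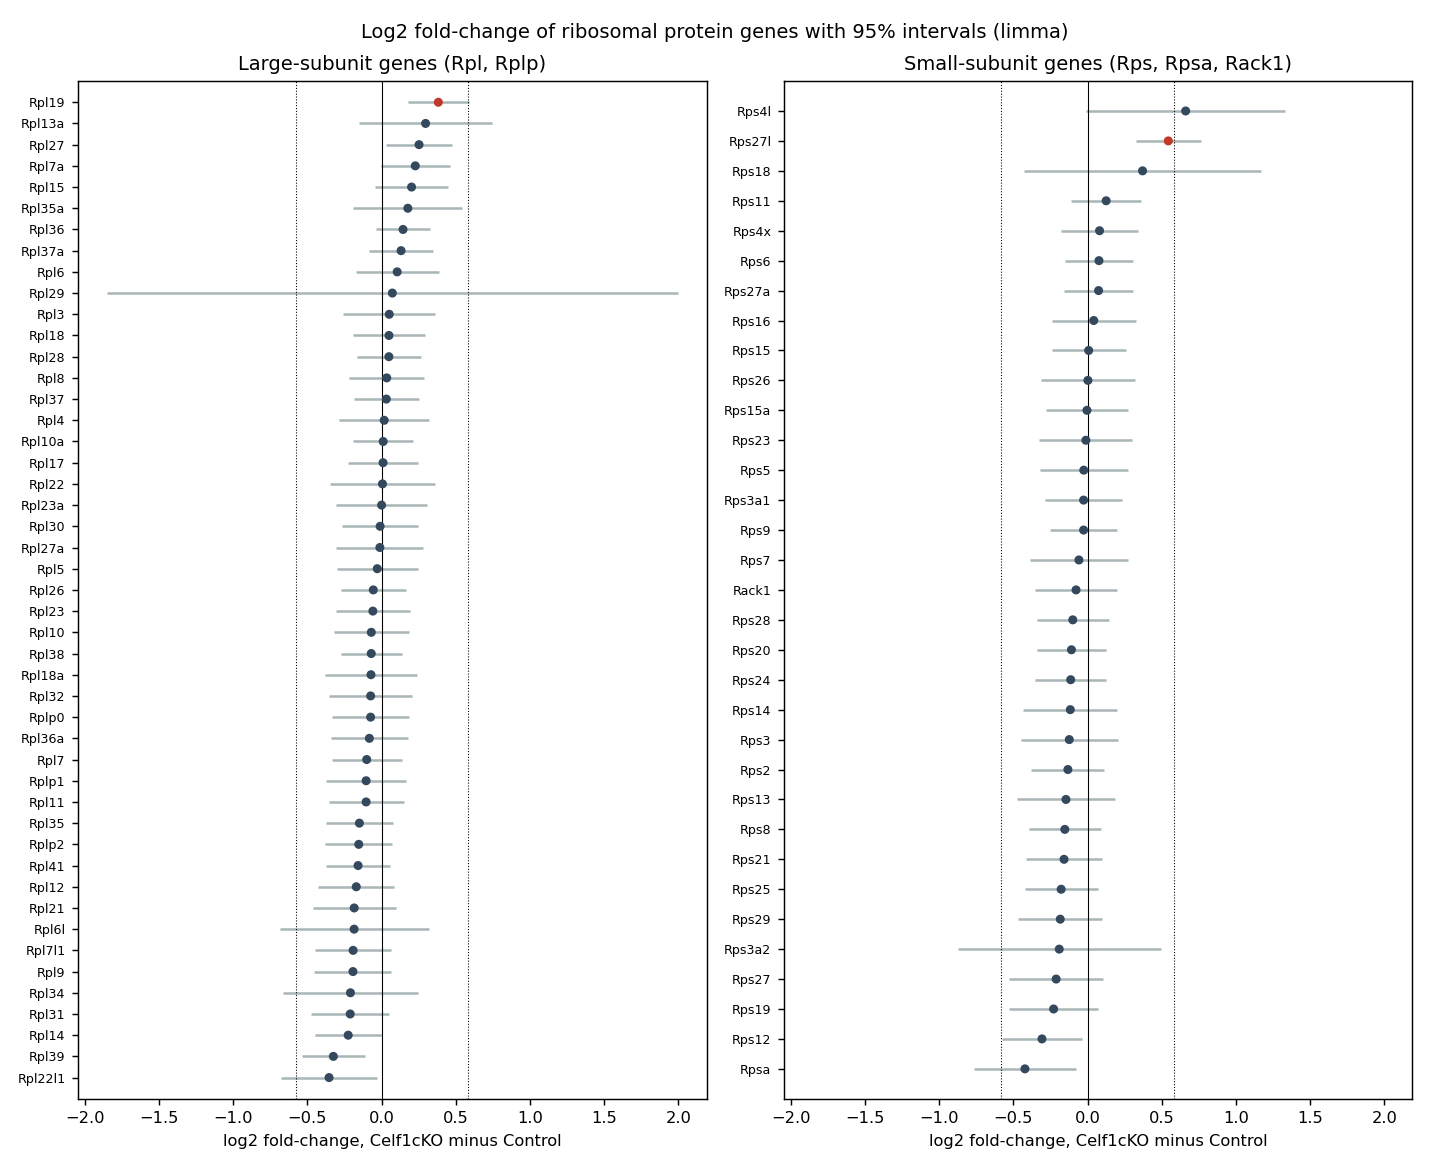
Log2 fold-change (Celf1cKO minus control) of the large-subunit genes (left) and the small-subunit genes (right, 1 of the 34 not drawn), ordered by size, with 95% intervals from limma as horizontal bars, dotted lines at 0.58 on either side of 0, and genes with an adjusted p under 0.05 in red. Rps27l and Rpl19 are the only red points, and most of the intervals end within the dotted lines.

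Rps27l (ENSMUSG00000036781, chr9:66946086-66949516, + strand of GRCm38) encodes a paralog of the small-subunit protein Rps27 and is known as a target of the transcription factor p53. Its level was 4.75, 4.78 and 4.70 log2 CPM in the control libraries, listed here and below in order of replicate number, and 5.25, 5.39 and 5.22 log2 CPM in the Celf1cKO libraries. The lowest Celf1cKO library was above the highest control library. It was elevated 1.46-fold, with a log2 fold-change of 0.54 (standard error 0.0929, 95% interval 0.33 to 0.76, limma adjusted p = 0.0162). These values rest on 1017 to 1031 reads in a control library and 1636 to 2040 in a Celf1cKO library. Rps27 itself was at 7.63, 7.72 and 7.35 log2 CPM in controls and at 7.57, 7.18 and 7.31 log2 CPM in Celf1cKO libraries, which overlapped (log2 fold-change -0.21, limma adjusted p = 0.332). Per length, Rps27l had 53.7 CPM per kb and Rps27 552 CPM per kb in control lenses, against 78.4 and 477 CPM per kb in Celf1cKO lenses. The adjusted p-value of Rps27l was between 0.00439 and 0.141 over the 18 other settings tried. It was 0.0626 without Celf1cKO library 2, 0.0825 without Celf1cKO library 3, 0.0640 without control library 2 and 0.05002 without control library 3. In these settings, 1 to 522 genes of the whole table passed at an adjusted p under 0.05, against 1655 in the main comparison.

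The coding sequences of the pair are printed to show that their reads can be told apart. They have the same length of 255 bases, start to stop codon, and are identical at 76.1% of positions, with the 61 differing bases in capitals (principal transcripts of GENCODE M21, GRCm38). The longest run of identical bases between the 2 whole transcripts was 11.
Rps27: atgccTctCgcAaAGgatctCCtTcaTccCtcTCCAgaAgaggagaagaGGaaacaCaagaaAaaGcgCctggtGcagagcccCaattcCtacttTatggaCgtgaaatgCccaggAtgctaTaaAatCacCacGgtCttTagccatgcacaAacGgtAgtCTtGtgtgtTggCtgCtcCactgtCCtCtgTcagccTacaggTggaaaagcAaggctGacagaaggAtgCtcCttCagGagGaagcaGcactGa
Rps27l: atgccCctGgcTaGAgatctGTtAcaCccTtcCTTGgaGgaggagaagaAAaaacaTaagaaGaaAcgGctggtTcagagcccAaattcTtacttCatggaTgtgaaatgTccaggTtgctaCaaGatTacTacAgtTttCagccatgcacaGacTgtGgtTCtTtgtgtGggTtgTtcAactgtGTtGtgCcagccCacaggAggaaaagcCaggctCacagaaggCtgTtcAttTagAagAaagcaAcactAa

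Rpl19 (ENSMUSG00000017404, chr11:98026710-98030492, + strand), a large-subunit protein near the peptide exit tunnel that also bridges the subunits, was at 8.65, 8.70 and 8.47 log2 CPM in controls and at 8.96, 9.04 and 8.96 log2 CPM in Celf1cKO libraries. The groups did not overlap, and the Celf1cKO libraries were within 0.08 of each other. It was elevated 1.30-fold (log2 fold-change 0.38, standard error 0.0887, 95% interval 0.17 to 0.59, limma adjusted p = 0.0361). Among the settings with a single library left out, the adjusted p-value stayed under 0.05 without Celf1cKO library 1 only. It was 0.127 without Celf1cKO library 2, 0.136 without library 3, 0.0893 without control library 1, 0.0752 without control library 2 and 0.0688 without control library 3. In these settings, 1 to 693 genes of the whole table passed, against 1655 in the main comparison. Rpl27, Rpl7a and Rpl36 of the large subunit were also above control in every library. Their log2 fold-changes were 0.25, 0.23 and 0.14, and their adjusted p-values from limma were 0.127, 0.179 and 0.257. The interval of Rpl27 was 0.03 to 0.48, and those of Rpl7a and Rpl36 included 0.

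At the other end, Rpl39 (ENSMUSG00000079641, chrX:37082520-37085402, - strand), a very small protein that lines the exit tunnel, was at 8.37, 8.39 and 8.26 log2 CPM in controls and at 8.13, 8.004 and 7.90 log2 CPM in Celf1cKO libraries. The highest Celf1cKO library was below the lowest control library. The log2 fold-change was -0.33 (standard error 0.0898, 95% interval -0.54 to -0.12). Its adjusted p-value by limma was 0.0579, and it was under 0.05 in 7 of the 18 other settings. It was 0.0488 with a block by replicate number, 0.0384 with that block and median centring, 0.0497 with expressed genes only, 0.0395 with median centring, 0.0345 without crystallin genes in the scaling, 0.0183 with quantile normalization and 0.0244 without Celf1cKO library 1. It was 0.0781 to 0.223 with any other single library left out, 0.0530 to 0.213 in the block with a pair left out and 0.370 under total-count scaling. Under the block, 3 of the 81 genes passed, against 15.2% of all genes. Rpsa, a small-subunit protein also known as a laminin receptor, had the lowest log2 fold-change of the family, -0.42 (95% interval -0.77 to -0.08, limma adjusted p = 0.106). Rpsa was at 10.13, 10.33 and 9.85 log2 CPM in controls and at 9.88, 9.56 and 9.60 log2 CPM in Celf1cKO libraries, where Celf1cKO library 1 overlapped with control library 3. Without Celf1cKO library 1 its log2 fold-change was -0.52, with a limma adjusted p of 0.0479. With any other single library left out, the limma adjusted p of Rpsa was 0.0719 to 0.281. Rps12, a small-subunit protein, was at 8.87, 8.94 and 8.61 log2 CPM in controls and at 8.64, 8.45 and 8.41 log2 CPM in Celf1cKO libraries (log2 fold-change -0.31, limma adjusted p = 0.122). Under total-count scaling the log2 fold-changes of Rpl39, Rpsa and Rps12 were -0.10, -0.20 and -0.08, with limma adjusted p-values of 0.370, 0.276 and 0.559. The adjusted p-value of Rps12 was 0.0434 with quantile normalization.

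**Figure D3:**
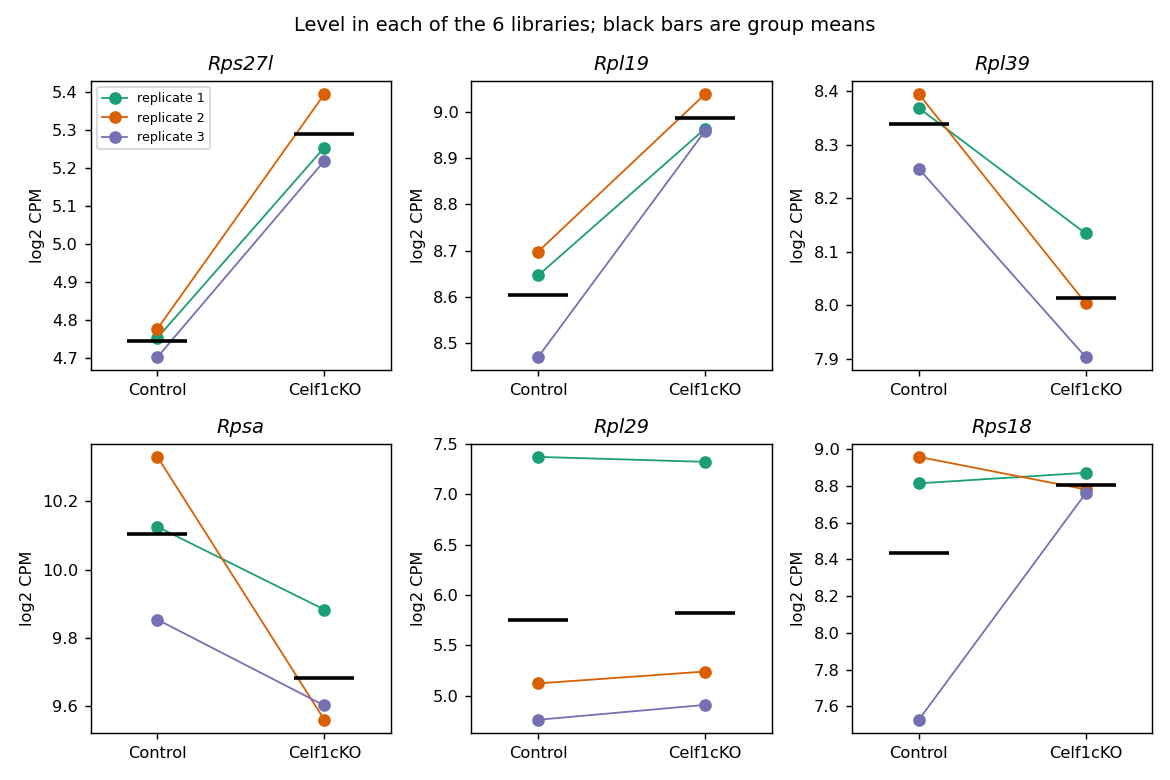
Level in log2 CPM (y axes, which differ in range and do not start at 0) of Rps27l, Rpl19, Rpl39, Rpsa, Rpl29 and Rps18 in each control and Celf1cKO library, with lines joining libraries of the same replicate number and black bars at group means. Rps27l and Rpl19 are higher in all 3 Celf1cKO libraries and Rpl39 is lower, Rpl29 follows the replicate number, and control library 3 stands apart for Rps18.

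Genes were also grouped by the place of their proteins in the ribosome. Rpl5 and Rpl11, which bind the small ribosomal RNA of the central protuberance and can bind Mdm2, had log2 fold-changes of -0.03 and -0.10. The P stalk, which recruits translation factors, comprised Rplp0 (-0.07), Rplp1 (-0.10), Rplp2 (-0.15) and Rpl12 (-0.17). None of these 6 passed the test. Of the 9 proteins that line or ring the exit tunnel, Rpl19 was elevated, 8 did not pass, and besides Rpl39 the lowest was Rpl31 with -0.21 and the next Rpl35 with -0.15. Rpl26 was at -0.06, and Rpl4, Rpl17, Rpl22 and Rpl23a were within 0.02 of 0. At the mRNA entry channel, Rps2, Rps3 and Rps9 had values of -0.13, -0.12 and -0.03. Near the mRNA exit, Rps14 had -0.12, Rps28 -0.10 and Rps3a1 -0.03, and Rps26 was at 0.0027. On the solvent side of the small subunit, Rack1, a scaffold for signaling proteins, had -0.08. Rps27a, made as a fusion with ubiquitin, had 0.07. The 30 genes that host snoRNAs had a median log2 fold-change of -0.06, as had the 51 others, and no host gene passed the test.

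Among the paralogs, Rps27l was the one that passed the test. Rpl22l1, the paralog of Rpl22, was at 5.48, 5.33 and 5.53 log2 CPM in controls and at 5.37, 4.98 and 4.93 log2 CPM in Celf1cKO libraries, with an overlap through Celf1cKO library 1. Its log2 fold-change was -0.35 (95% interval -0.68 to -0.03, limma adjusted p = 0.136), and that of Rpl22 was 0.0058. Without Celf1cKO library 1 the log2 fold-change of Rpl22l1 was -0.49 with a limma adjusted p of 0.0191. With any other single library left out, its limma adjusted p was 0.185 to 0.362. Rps4l, 79.7% identical to Rps4x over 814 aligned bases, was at 4.79, 5.17 and 4.30 log2 CPM in controls and at 4.90, 5.83 and 5.52 log2 CPM in Celf1cKO libraries. It had the highest log2 fold-change of the family at 0.66, but a wide interval from -0.01 to 1.33 (limma adjusted p = 0.172). Without Celf1cKO library 1 it passed all cut-offs, with a log2 fold-change of 0.92 and a limma adjusted p of 0.0433. With any other single library left out, the limma adjusted p of Rps4l was 0.152 to 0.402. Rpl7l1, which acts in assembly of the large subunit, had a log2 fold-change of -0.19 (limma adjusted p = 0.277). The 2 genes annotated as processed pseudogenes, Rps3a2 and Rpl6l, had values of -0.19 each with 28 to 52 and 85 to 109 reads per Celf1cKO library. Outside the rule, Fau, whose product includes a small-subunit protein, had -0.05, and the retrogenes Rpl37rt and Rps27rt had -0.27 and -0.50, with overlapping groups.

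Levels of the family moved together between libraries within each group. Relative to each gene's mean of the 6 libraries, the median over the 81 genes was 0.09, 0.16 and -0.16 log2 in controls and 0.10, -0.06 and -0.10 log2 in Celf1cKO lenses, in the order of the replicate numbers. Over all expressed genes the same medians lay between -0.03 and 0.03. Control library 2 was the highest of the 6 libraries for 48 genes and control library 3 the lowest for 46. In order of replicate number, the control libraries were above the mean for 71, 77 and 4 of the 81 genes and the Celf1cKO libraries for 73, 19 and 14. The difference between groups therefore varied with the replicate number. Between libraries numbered 1, the median difference (Celf1cKO minus control) was 0.01, with 44 genes higher. Between libraries numbered 2 it was -0.23, with 71 of 81 genes lower. Between libraries numbered 3 it was 0.05, with 49 genes higher. Without control library 3, the median log2 fold-change was -0.16 with 69 genes lower, and without control library 2 it was 0.0021 with 39 lower. In all 3 numbered pairs, 8 genes were higher (9.88%, against 33.4% of expressed genes) and 26 lower (32.1%, against 29.2%). The 8 comprised Rps27l, Rpl19, Rpl27, Rpl36, Rpl7a, Rpl15, Rpl13a and Rps4l.

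**Figure D4:**
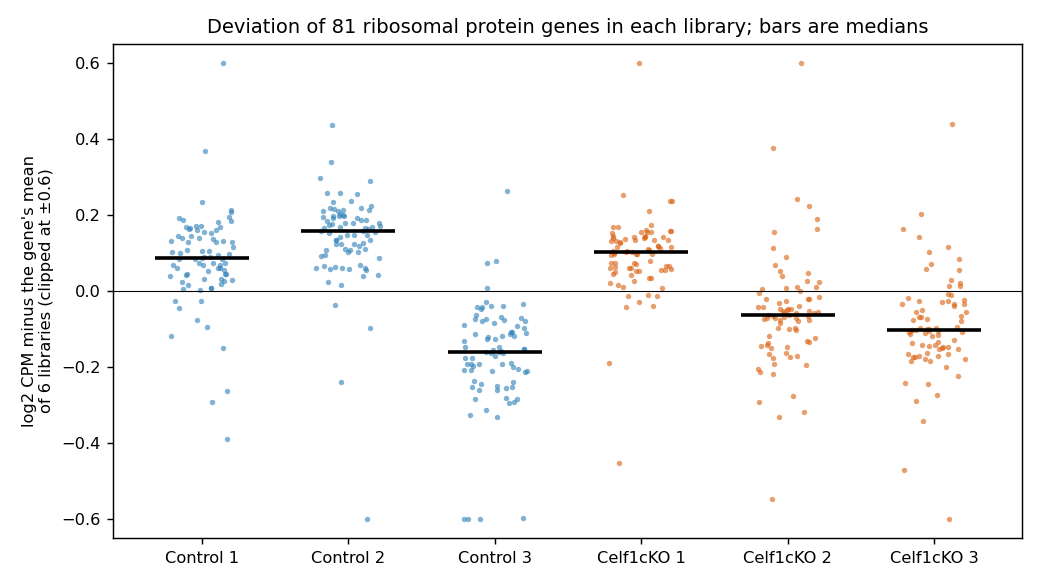
Deviation of each of the 81 genes from its mean over the 6 libraries in log2 CPM (y axis, values beyond 0.6 drawn at 0.6), with 1 point per gene for each library and black bars at the medians. Control library 2 sits highest and control library 3 lowest, with medians of 0.16 and -0.16.

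A few genes stood apart from this shared pattern. Rpl29, a small large-subunit protein, was at 7.37, 5.12 and 4.76 log2 CPM in controls and at 7.32, 5.24 and 4.91 log2 CPM in Celf1cKO libraries. Both libraries numbered 1 were more than 2 log2 units above the other 4, and the difference within each numbered pair was at most 0.15. Of the 10529 expressed genes, 5 were higher in both libraries numbered 1 than in all others by more than 1 log2 unit, and Rpl29 was the only one of the family. Its log2 fold-change between the groups was 0.07, with an interval from -1.85 to 1.997. Rps18, a small-subunit protein, was at 8.81, 8.96 and 7.53 log2 CPM in controls and at 8.87, 8.78 and 8.76 log2 CPM in Celf1cKO libraries. Its log2 fold-change of 0.37 (limma adjusted p = 0.502) rested on control library 3 and was -0.08 without it. Rpl13a was likewise lowest in control library 3, at 3.95 against 4.57 to 4.74 log2 CPM in the 5 others.

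Genes that act with the ribosomal proteins were examined as lists. Of 38 measured assembly factors of the small subunit, 7 passed at an adjusted p under 0.05 and these were elevated (18.4%). Imp4, Utp4 and Utp15, all of the small-subunit processome, had log2 fold-changes of 0.68, 0.67 and 0.58. Fibrillarin (Fbl), the methyltransferase of box C/D snoRNPs, which many snoRNAs hosted in ribosomal protein genes guide, was elevated with 0.52, and its partner Snu13 with 0.56. Of 41 factors of the large subunit, 6 passed and were elevated (14.6%). Over both lists, 13 of 79 passed (16.5%), and 0 were reduced. Of all genes 11.9% passed, 7.85% elevated and 4.03% reduced. Of the 10529 genes with a mean log2 CPM above 1, 14.5% passed, 1035 elevated and 495 reduced. Gnl3l, a nucleolar GTPase, had 1.37, nucleophosmin (Npm1) 1.05 and Ebna1bp2 0.73. Npm1 was at 7.68, 7.47 and 7.56 log2 CPM in controls and at 8.43, 8.81 and 8.63 log2 CPM in Celf1cKO libraries, without overlap. Median log2 fold-changes of the lists were 0.08 and 0.14, beside -0.06 for the ribosomal proteins and 0.01 for all expressed genes. With the replicate block, 12 of the 79 factors were elevated and Dkc1, the pseudouridine synthase, was reduced. The number of these factors that passed was 0 without Celf1cKO library 3 or without control library 2, 4 without Celf1cKO library 2, 6 without control library 1 and 5 without control library 3. Over the whole table, the numbers in that order were 1, 1, 488, 693 and 522 genes, against 1655 in the main comparison. Of 14 RNA polymerase I genes, only Polr1d passed (7.14%) and was elevated (0.54), a call lost with median centring. Of 7 dedicated chaperones of ribosomal proteins, none passed by limma, with 2 at an unadjusted p under 0.05.

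Among 15 genes of the TOP mRNA and mTORC1 pathway, Larp1, which binds TOP motifs, and Rheb, which activates mTORC1, were elevated, each with a log2 fold-change of 0.61. Rptor, the mTORC1 subunit that recruits substrates, was reduced (-0.59), as were Tsc2 (-0.47) and Pabpc1 (-0.48), the poly(A)-binding protein whose own mRNA is a TOP mRNA. With the replicate block the adjusted p-value of Pabpc1 was 0.0501 by limma. Of 10 genes of the MYC network, which drives transcription of ribosomal protein genes, Max, the partner of Myc, was reduced (-0.41), as was its antagonist Mxd1 (-1.18). Myc was at -0.97 with a limma adjusted p of 0.0980. Of 13 p53 target genes, Rps27l among them, 9 were elevated and Sesn1 was reduced (-1.10). Beside this list and the 15 and 10 genes above, 7.85% of all genes were elevated and 4.03% reduced at an adjusted p under 0.05. Cdkn1a, which encodes the cell cycle inhibitor p21, had the highest log2 fold-change at 5.42, followed among called genes by Trp53inp1 with 2.59 and Phlda3 with 1.82. Mdm2, whose product degrades p53, had 0.58. Without Celf1cKO library 3 or control library 2, none of the p53 targets passed at an adjusted p under 0.05. In each of these settings, 1 gene of the whole table passed.

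**Figure D5:**
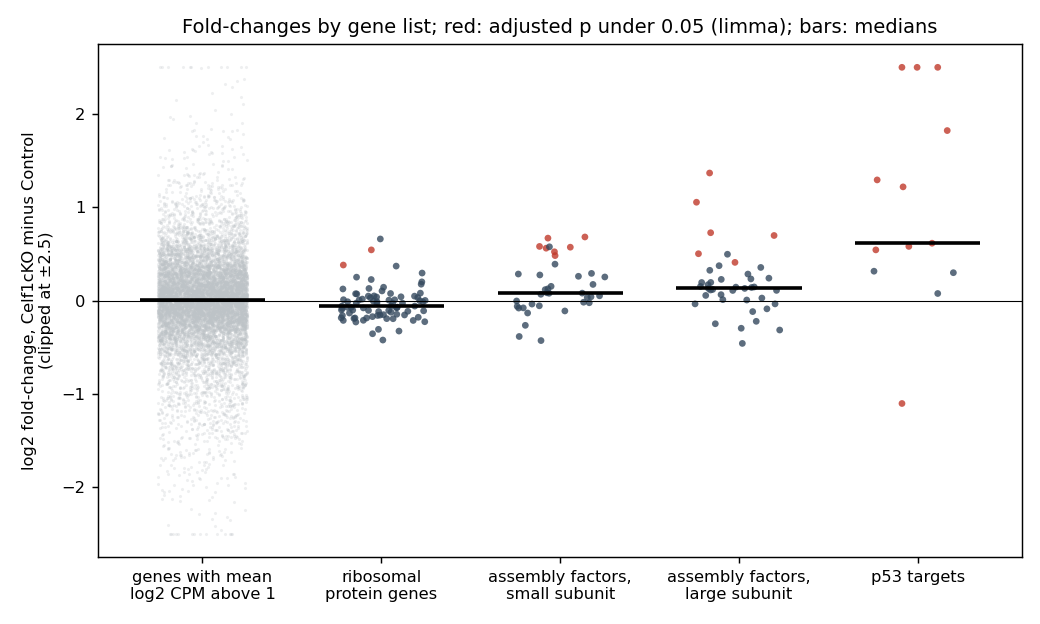
Log2 fold-change (y axis, values beyond 2.5 drawn at 2.5) of all genes with a mean log2 CPM above 1, of the 81 ribosomal protein genes, of assembly factors of each subunit and of p53 targets, with 1 point per gene, medians as black bars and genes with an adjusted p under 0.05 in red. Ribosomal protein genes lie between -0.42 and 0.66 with 2 red points, and the assembly factors hold 13 red points above 0.

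Markers of the cells that a lens sample can hold were measured as well. Fiber cell markers summed to 174014 to 205686 CPM in control and to 127284 to 142451 CPM in Celf1cKO libraries, with 5 of 11 reduced. These 11 were all detected, and a further listed marker, Lim2, was not in the table. Markers of the lens epithelium summed to 442 to 508 and to 145 to 370 CPM, with Foxe3 and Pdgfra of 5 reduced. Of all genes, 4.03% were reduced at an adjusted p under 0.05. Vessel markers summed to 75.3 to 91.2 and to 20.8 to 88.7 CPM, and were lowest in Celf1cKO library 2. The 4 leukocyte, 3 mesenchyme and 5 retina or pigment epithelium markers in the table summed to at most 7.35, 5.91 and 33.5 CPM in any library, and of the red blood cell markers Alas2 alone was in the table, at no more than 1.39 CPM. The part of these markers in the values of the ribosomal protein genes was not tested.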

How the data were processed

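RNA was sequenced from pooled P0 lenses as strand-specific paired-end libraries. The authors aligned trimmed reads to GRCm38.p6 with STAR (2.7.8a), kept uniquely mapped reads, counted them with featureCounts (2.0.0), removed genes of very low expression, normalized with edgeR and deposited log2 CPM values of each library. The authors' own fold-changes, F statistics, p-values, FDR and averages in the same table were not used. Reads recovered from the steps of the values came out whole for 100% of the values checked, which left out those with the most reads. They gave 40694454 to 44387151 reads per library.

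limma (3.58.1 in R 4.3.3) was fitted with a variance trend (3.4 prior degrees of freedom) to the log2 CPM of all 13931 genes, and Benjamini-Hochberg adjustment covered the whole table. Error is the spread between libraries, and exact permutation tests could not go below p = 0.1 with 3 libraries against 3. The procedure was tested on simulated counts drawn independently for each gene and library. Deviations shared between genes or between same-numbered libraries were therefore not covered by that test. Same-numbered libraries deviated together (r = 0.33, 0.42 and 0.33 over expressed genes, and 0.78, 0.53 and 0.50 over the 81 genes). Over the 81 genes, control library 2 also went with Celf1cKO library 3 (r = 0.67) and control library 3 with Celf1cKO library 2 (r = 0.28). The numbers come from the labels, which do not say what they stand for. Libraries of a group were pools of separate lenses by the study's methods.

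Members and gene lists were chosen with earlier results of these data known. Named were members passing the cut-offs, those with the largest non-overlapping changes, paralogs, genes of set roles, extremes of level, and up to 3 called genes per list. Genes beyond this rule were named after their values were seen (Rpsa, Rps12, Rpl29, Rps18 and Rpl13a, Rpl7, Rps15a, Rps20, Fbl, Snu13, Polr1d, Dkc1, Tsc2, Pabpc1, Max, Myc and Mdm2). Annotation came from GENCODE M21 (GRCm38), identity from blastn 2.17.0, and figures from matplotlib 3.10.9 in Python 3.11.15. Rpl3l, Rpl10l, Rpl39l, Rpl36al, corneal markers and pseudogene loci were not analysed here, and 1 gene of the set roles is not reported here by name.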

Additional observations from a re-analysis of the deposited data

How the results depend on the processing

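Alternatives were the replicate block, 4 other scalings (total counts, without crystallin genes, median centring, quantile), log2(CPM + 1), voom, expressed genes only, no fold cut-off and each library left out. Blocks combined with median centring or with a pair left out, the lists with a library left out or with total-count scaling, and the family without pseudogenes were added after seeing the data. By all cut-offs, 0 genes passed except for 2 under total-count scaling, 2 without the fold cut-off, and 0 to 1 with a library or pair left out. By the adjusted p-value, 2 genes passed in the main comparison, beside 11.9% of all genes. It was 16 under total-count scaling (all elevated, beside 23.3%), 5 under quantile normalization (beside 13.0%) and 0 to 6 with a library left out, with 6 without Celf1cKO library 1 (beside 21.8%). It was 3 with expressed genes only, median centring or scaling without crystallin genes (beside 16.5%, 11.8% and 12.1%). In the block with a pair left out, 3 passed without pair 1 (beside 20.9%). In that block 0 passed without pair 2 (beside 8.46%) or pair 3 (beside 0.0287%). With the replicate block 3 passed, Rpl39 added, and it changed no other call of the family. Among the lists, the block lost Eif6, Pabpc1 and Crygd and added Dkc1 and Mycn. The median log2 fold-change of the family was 0.17 under total-count scaling and -0.16 to 0.0021 with a library left out. The share of reads differed by 0.358 percentage points between the groups, by -0.275 without crystallin reads and by 0.221 to 0.431 with a library left out. Of the 79 assembly factors, 13 passed in the main comparison, 31 under total-count scaling and 0 to 17 with a library left out. The cause was not tested. Of the 37 members under the naming rule, only Rps27l and Rpl19 passed in the main comparison, by the adjusted p-value. Both kept a log2 fold-change above 0 in the 18 other settings. Their adjusted p-value was under 0.05 in 12 of these for Rps27l and in 10 for Rpl19. Members that did not pass could change sign, such as Rack1, with log2 fold-changes from -0.18 to 0.15 over these settings. Whole-table calls fell from 1655 genes to 1 without Celf1cKO library 3 or control library 2, and to 4 in the block without pair 3. Counts of 0 in these settings therefore hold for most genes. With 3 libraries a group the median half-width of the 95% interval was 0.258 over the family.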
